A study of Sus scrofa with 6 samples.

Results

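The immediate early genes FOS, JUN, JUNB, EGR1, ATF3, NR4A1 and MYC, together with CYR61, were examined in the preovulatory follicles of 3 Large White and 3 Chinese Taihu sows. Of the 24123 probe sets of the array, 8 carried 1 of these 8 genes as their only symbol in the probe table. FOS, JUN, ATF3, MYC and CYR61 had 1 probe set each and EGR1 had 3, so 6 of the 8 genes could be described, among 6765 genes named in this way. JUNB and NR4A1 had no such probe set. All 8 probe sets had a signal above 50 on each of the 6 arrays. CYR61 is a gene that the study itself picked out as differing between the breeds on these same samples, so its breed difference is not independent evidence.

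Each array held 5 µg of total RNA from the healthy follicles over 5 mm of a single sow that had farrowed in at least 2 parities. All 6 sows received 1000 IU of PMSG, which acts like FSH, and 80 h later 500 IU of hCG, which acts on the LH receptor. They were killed 30 to 38 h after hCG, so there was no untreated group and no earlier time. The Chinese Taihu sows are labelled Chinese Erhualian, which is a Taihu strain. The breeds came from separate farms, so breed and farm cannot be told apart. The deposited values are linear signal intensities that the authors normalized. Differences on the log2 scale are given as Chinese Taihu less Large White, and adjusted p-values come from limma with Benjamini-Hochberg adjustment over 19196 tested probe sets.

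Immediate early genes are transcribed within minutes of a stimulus because the factors that switch them on, CREB and the serum response factor among them, are already present in the cell. Their messages are short-lived, and most of their proteins are transcription factors that then act on later genes. FOS and JUN pair to form AP-1, ATF3 binds related sites, EGR1 is a zinc finger factor, MYC drives growth and division, and CYR61 is a secreted matrix protein that binds integrins and promotes vessel growth. In the ovary LH raises several of them in granulosa and theca cells soon after the surge, and EGR1 is needed in the pituitary for LH itself.

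FOS and EGR1 were far higher in Large White sow 1 than in any other sow, while the breeds overlapped in both genes. JUN was highest in Large White sow 2, MYC in Chinese Taihu sow 1 and ATF3 in Chinese Taihu sow 3, again with overlapping breeds. CYR61 was the 1 gene in which every Chinese Taihu sow lay below every Large White sow, at 0.498 times the Large White mean. None of the 8 probe sets passed an adjusted p of 0.05 (limma), which 4 of the 19196 tested probe sets did (0.0208%). At the study's own level, an unadjusted p up to 0.05, 1 of the 8 passed, against 3.86% of all tested probe sets, and 2.3% in the same direction. Large White sow 1 held the highest signal in 5 of the 8 probe sets (FOS, EGR1 on 3 and CYR61), which it did in 19.3% of all tested probe sets. The 3 EGR1 probe sets read the same RNA. With 1 probe set per gene it was highest in 3 of the 6 genes (50%), against 22.4% of all tested genes.

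**Figure D1:**
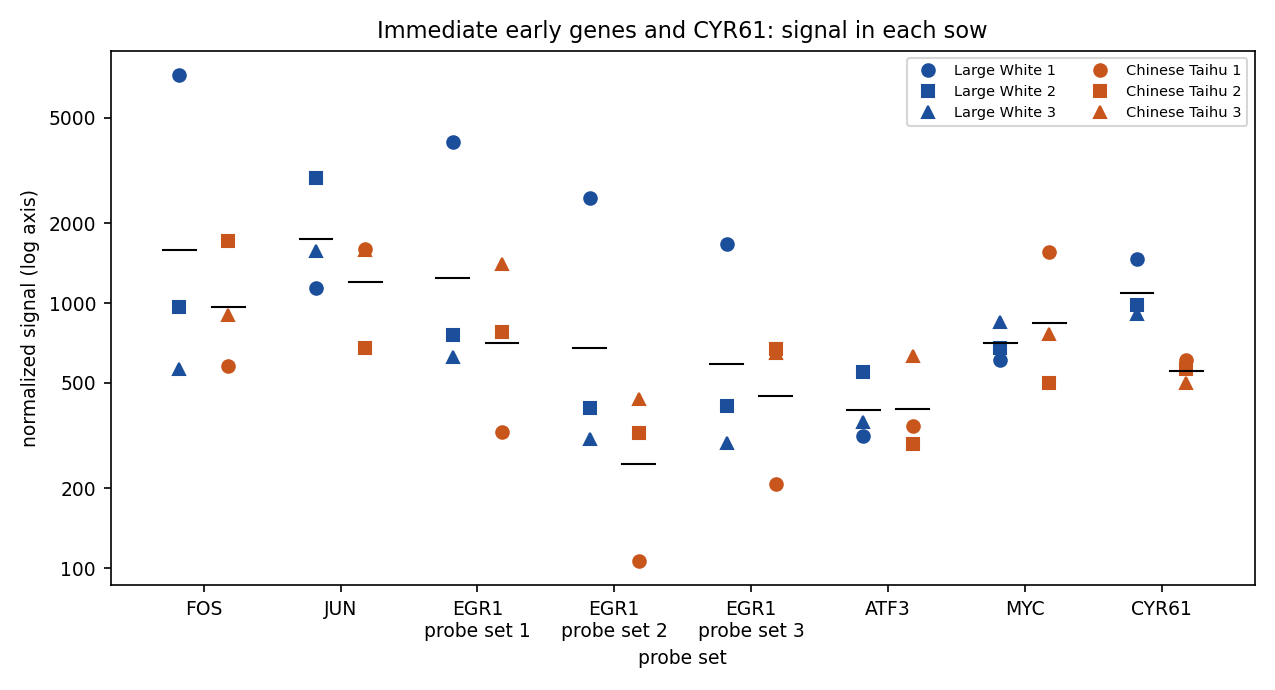
Normalized signal (y axis, log scale) of the 8 probe sets (x axis). Points are single sows (blue, Large White; orange, Chinese Taihu; circle, square and triangle for sows 1, 2 and 3) and lines mark the breeds' geometric means. Large White sow 1 stands above the others in FOS (7254) and in the 3 EGR1 probe sets, and only in CYR61 do the breeds not overlap.

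The arrays differed widely in markers of cell types. Markers of the oviduct and of cilia had a list median 5.57 (Chinese Taihu sow 1) and 2.93 (Large White sow 3) above each gene's own median on the log2 scale. In Chinese Taihu sow 1 all 13 surface epithelium markers were at their highest, the theca list stood at -3.54 and the granulosa list at -1.44. STAR, which carries cholesterol into mitochondria and marks steroid-making cells, had a signal of 27.0 in that sow and 982 to 12624 in the others. INHA, a granulosa cell product, had 446 and 6510 to 10684. Many leukocyte markers peaked in Large White sow 2, where 11 of 18 were at their highest (61.1%, against 17% of all tested genes). The T cell markers did not, with CD2, CD3D, CD3E and CD8A highest in Chinese Taihu sow 1 and CD4 in Large White sow 1. The endothelial list stayed between -0.14 and 0.15, and PECAM1 of endothelial cells had 1171 to 1775. ACTA2, the smooth muscle actin of the follicle wall, had 8013 to 10610, but the smooth muscle list varied, with a median of -0.82 in Chinese Taihu sow 3 and -0.35 in Large White sow 1. In RNA of whole follicles, fewer cells of a type and less RNA per cell cannot be told apart.

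**Figure D2:**
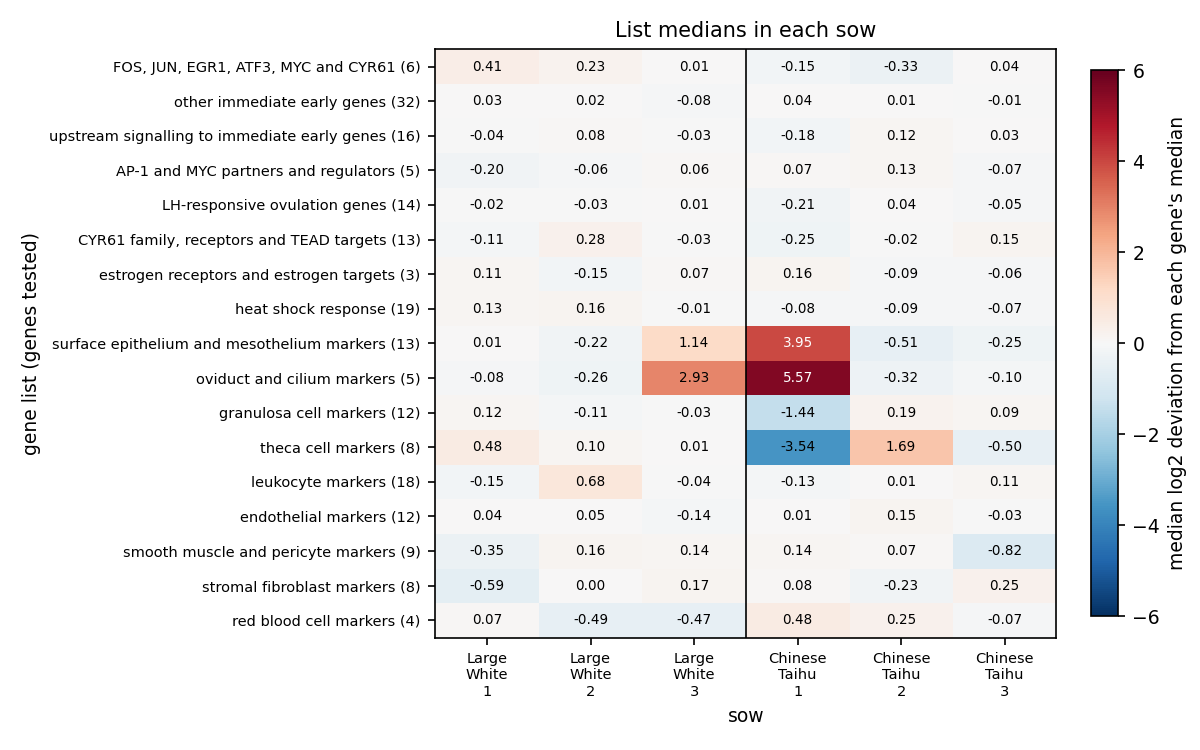
Median log2 deviation of each gene list in each sow. Rows are lists with the number of genes tested, columns are the 6 sows, and the colour and number show how far the list lies from its genes' own 6-sow medians. The oviduct and cilium list reaches 5.57 in Chinese Taihu sow 1 and the theca list falls to -3.54 there. The list median of the 32 other immediate early genes stays between -0.08 and 0.04, though single genes of it vary more.

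FOS, the AP-1 subunit that dimerizes with JUN, is read by probe set Ssc.1555.1.A1_at. Its normalized signal was 7254, 966 and 563 in Large White sows 1, 2 and 3, and 581, 1712 and 905 in Chinese Taihu sows 1, 2 and 3. Large White sow 1 alone set the Large White mean apart, at 8.02 times the median of the other 5 sows and 4.24 times the next highest, and the rest of the breeds overlapped. The means were 2928 ± 3752 (SD, n = 3) for Large White against 1066 ± 583 for Chinese Taihu. On the log2 scale the difference was -0.71 (SE 0.97, adjusted p = 0.993), and its 95% interval ran from 0.12-fold to 3.10-fold. Without Large White sow 1 the log2 difference turned to 0.39. The FOS signal spanned 12.9-fold over the 6 sows, and only 1.93% of the tested probe sets had a spread within the breeds as large as that of FOS (SD 1.48 on the log2 scale).

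Some theca cell markers, those of steroid synthesis, were also high in the 2 sows with the most FOS, Large White sow 1 and Chinese Taihu sow 2. The 8 markers of the list came to a sum of 39084 and 44802 in that order, against 3634 to 15818 in the remaining 4 sows, and CYP11A1, HSD3B1 and STAR made up most of it. The list did not move as a whole, since none of the 8 was at its highest in Large White sow 1, while 6 were highest and 2, ANPEP and NR2F2, lowest in Chinese Taihu sow 2. INSL3, a hormone of theca cells, had 1121 in Large White sow 1, below the 1275 and 1725 of the other Large White sows. STAR was 12051 and 12624 in the 2 sows, and SQLE, an enzyme of cholesterol synthesis chosen after its values were seen, was 2157 and 2680 against 287 to 441. The pattern was not limited to the theca list. NR5A2 of the granulosa list had 5110 and 3844 in these sows, against 84.3 to 1686 elsewhere. INHA of the same list did not follow it, at 6510 and 9602 against 446 to 10684 elsewhere. FOS itself differed 4.24-fold between these 2 sows. The part of these cells or pathways in the FOS signal was not tested.

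JUN, the partner of FOS in AP-1, is read by Ssc.9075.1.A1_at. It had a signal of 1139, 2952 and 1574 in the Large White sows, then 1601, 679 and 1589 in the Chinese Taihu sows. The highest value came from Large White sow 2 and the lowest from Chinese Taihu sow 2, with the other 4 sows between 1139 and 1601. The means were 1888 ± 947 and 1290 ± 529 (log2 -0.54, SE 0.48, adjusted p = 0.993), and the interval of 0.308-fold to 1.54-fold includes no difference. The direction remained below 0 whichever sow was left out, at -0.84 to -0.13. Large White sow 1, the sow with the most FOS, had the second lowest JUN signal. The 18 leukocyte markers summed to 22719 in Large White sow 2, the others reaching 5113 to 8586, and TYROBP, an adaptor of myeloid cells, was 5138 there and 534 to 1011 elsewhere. The T cell markers CD2, CD3D, CD3E, CD4 and CD8A were not at their highest in Large White sow 2. The part of leukocytes in the JUN signal was not tested.

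ATF3, a factor of the CREB family that is induced by stress, is read by Ssc.16466.1.A1_at. Its signal was 314, 549 and 355 for Large White against 345, 293 and 631 for Chinese Taihu. One sow of each breed, Large White sow 2 and Chinese Taihu sow 3, stood above the other 4. The means were 406 ± 125 and 423 ± 182 (log2 0.02, SE 0.36, adjusted p = 0.9997), with an interval of 0.551-fold to 1.87-fold. The sign of this difference changed when Large White sow 1, Large White sow 3 or Chinese Taihu sow 3 was left out.

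EGR1, which binds GC-rich sites in the promoters of genes for growth factors and gonadotropins, is read by 3 probe sets. Probe set Ssc.19629.2.S1_s_at, the brightest, had 4059, 759 and 624 for Large White against 327, 777 and 1403 for Chinese Taihu. Ssc.16460.1.S1_at had 2497, 402 and 308, and 106, 323 and 436. Ssc.19629.1.A1_at had 1672, 408 and 296, and 208, 668 and 646. On all 3, Large White sow 1 was highest, at 2.5 to 5.72 times the next sow, and Chinese Taihu sow 1 was lowest. The signals spanned 12.4-fold, 23.5-fold and 8.03-fold over the 6 sows, and the log2 signals of the 3 probe sets correlated with one another at a Pearson r of 0.92 to 0.97 over the 6 arrays, which describes 3 readings of the same RNA. A name ending in s_at marks probes that can match more than 1 transcript, and the other EGR1 probe sets do not carry it.

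The EGR1 means were 1814 ± 1945 for Large White against 835 ± 541 for Chinese Taihu on the brightest probe set (log2 -0.81, SE 0.85, adjusted p = 0.993). The other probe sets had log2 differences of -1.46 (SE 0.91) and -0.39 (SE 0.77), with the same adjusted p of 0.993 by limma. Their 95% intervals together ran from 0.0794-fold to 2.75-fold. Without Large White sow 1 the 3 differences became 0.04, -0.51 and 0.37. The within-breed SD was 1.16 to 1.39 on the log2 scale, a spread that 2.39% to 4.05% of the tested probe sets reached. The low values of Chinese Taihu sow 1 came with the lowest STAR and INHA signals of the series, and the part of cell makeup in them was not tested.

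MYC, the growth-promoting factor that pairs with MAX, is read by SscAffx.8.1.S1_s_at, another name that allows more than 1 transcript. It had a signal of 611, 679 and 852 for Large White against 1562, 497 and 761 for Chinese Taihu. Chinese Taihu sow 1 was 1.83 times the next sow, and the other 5 lay between 497 and 852. The means were 714 ± 124 and 940.4 ± 555 (log2 0.25, SE 0.43, adjusted p = 0.993), with an interval of 0.579-fold to 2.44-fold. Without Chinese Taihu sow 1 the log2 difference was -0.20. The 13 epithelial markers summed to 40085 in this sow, against 2476 to 7005 elsewhere. EPCAM, an adhesion protein of epithelial cells, was 7761 there and 140 to 1653 elsewhere, and OVGP1, the oviduct glycoprotein, 11904 and 116 to 2382. Large White sow 3, which came next in both marker genes, also came next in MYC. Their part in the MYC signal was not tested.

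CYR61, read by Ssc.9720.1.A1_at, had a signal of 1465, 987 and 906 for Large White against 611, 563 and 497 for Chinese Taihu. Every Chinese Taihu value lay below every Large White value, a lack of overlap that 9.1% of all tested probe sets showed in either direction and 5.12% in this one. Large White averaged 1119.6 ± 302 (SD, n = 3) and Chinese Taihu 557 ± 57.0, which gives 0.498 times. The log2 difference was -0.98 (SE 0.24), with a 95% interval of 0.337-fold to 0.763-fold that covers this gene alone, with no adjustment for the other probe sets. By limma the p was 0.00618 before and 0.993 after adjustment, and the exact permutation test of 3 sows against 3 gave 0.1, the smallest p it can give. With this ratio and p, CYR61 was 1 of 183 probe sets (0.953%) past the study's thresholds, which ask for an unadjusted p up to 0.05 together with a ratio of 2 or more, or of 0.5 or less. The ratio lies just inside the lower limit.

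The CYR61 difference kept its direction with every sow left out, at -1.12 to -0.77, with limma p from 0.00827 to 0.0240 before adjustment and 0.708 to 0.9998 after it. Large White sow 1 was the highest in CYR61 as well, at 1.48 times the next sow. Within the breeds CYR61 varied less than the transcription factors, with an SD of 0.28 on the log2 scale that 53.6% of the tested probe sets reached. Some measures of array quality also separated the breeds. Relative to the geometric mean of the Large White arrays, the hybridization spike-ins read 1.31 to 1.47 for Chinese Taihu and 0.94 to 1.08 for Large White, and the ratio of the 3′ to the middle GAPDH probe set was 1.04 to 1.09 against 1.004 to 1.02 in the same order. Other measures overlapped between the breeds. The ratio of the 3′ to the 5′ GAPDH probe set was 1.361 to 1.849 for Chinese Taihu and 1.214 to 1.604 for Large White. The same ratio for actin was 1.962 to 2.664 and 1.497 to 2.128. The part of array quality in the CYR61 difference, and that of cell makeup, was not tested.

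**Figure D3:**
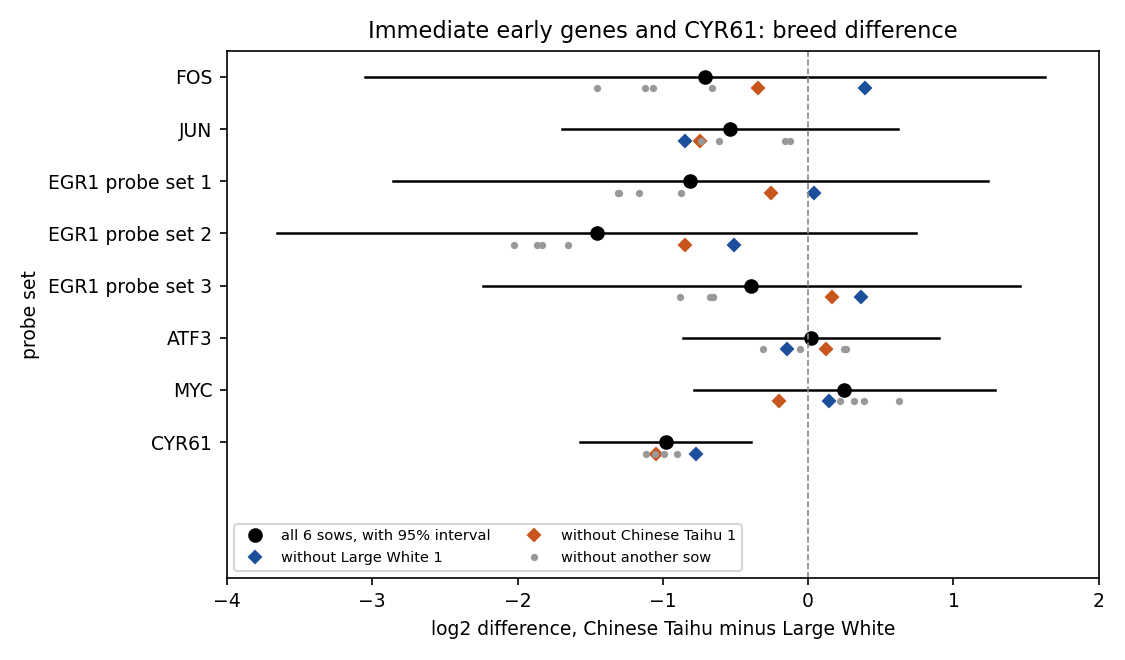
Log2 difference between the breeds (x axis, Chinese Taihu minus Large White) for the 8 probe sets (y axis). Black points and lines are the limma difference with its 95% interval from all 6 sows, and the smaller marks below them leave out 1 sow each (blue diamond, Large White sow 1; orange diamond, Chinese Taihu sow 1; grey dots, each other sow). Only the interval of CYR61 (log2 -0.98) excludes 0, and FOS moves from -0.71 to 0.39 without Large White sow 1.

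The sow-to-sow changes were compared between the 6 genes, 1 probe set each, in 15 pairs. Pearson's r was above 0 in 8 pairs. FOS and EGR1 had the largest, 0.87 (exact permutation p = 0.0278, 2-sided, 0.417 after adjustment over the 15 pairs; Spearman's rho 0.77, exact p = 0.103, adjusted 0.510). Without Large White sow 1 and Chinese Taihu sow 2, the sows farthest from the median FOS signal, r was 0.73 over 4 sows, without Large White sow 1 alone it was 0.49, and with each breed centred on its mean it was 0.86. FOS had r = 0.89 with EGR1 probe set 2 and 0.93 with probe set 3, and these became 0.49 and 0.84 without Large White sow 1. The fall without that sow was thus large on probe sets 1 and 2 and small on probe set 3. JUN and ATF3 came next with r = 0.70 (exact p = 0.101; rho 0.71, exact p = 0.136), and both had Large White sow 2 among their high sows. Without the sows farthest from the median JUN signal, Large White sow 2 and Chinese Taihu sow 2, it was 0.48.

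MYC ran against FOS (r = -0.60, exact p = 0.225; rho -0.89, exact p = 0.0333) and against EGR1 (r = -0.61, exact p = 0.20; rho -0.71, exact p = 0.136). Without the 2 sows farthest from the median of FOS or of EGR1 these were -0.71 and 0.06. The lowest p after adjustment over the 15 pairs was 0.417 for Pearson's r and 0.50 for Spearman's rho (exact permutation), so no pair passed. At an unadjusted exact permutation p of at most 0.05, 1 pair passed by each measure. FOS and JUN, which form AP-1 together, had r = -0.44 (exact p = 0.364; rho -0.43, exact p = 0.419), and 0.65 without Large White sow 1 and Chinese Taihu sow 2.

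**Figure D4:**
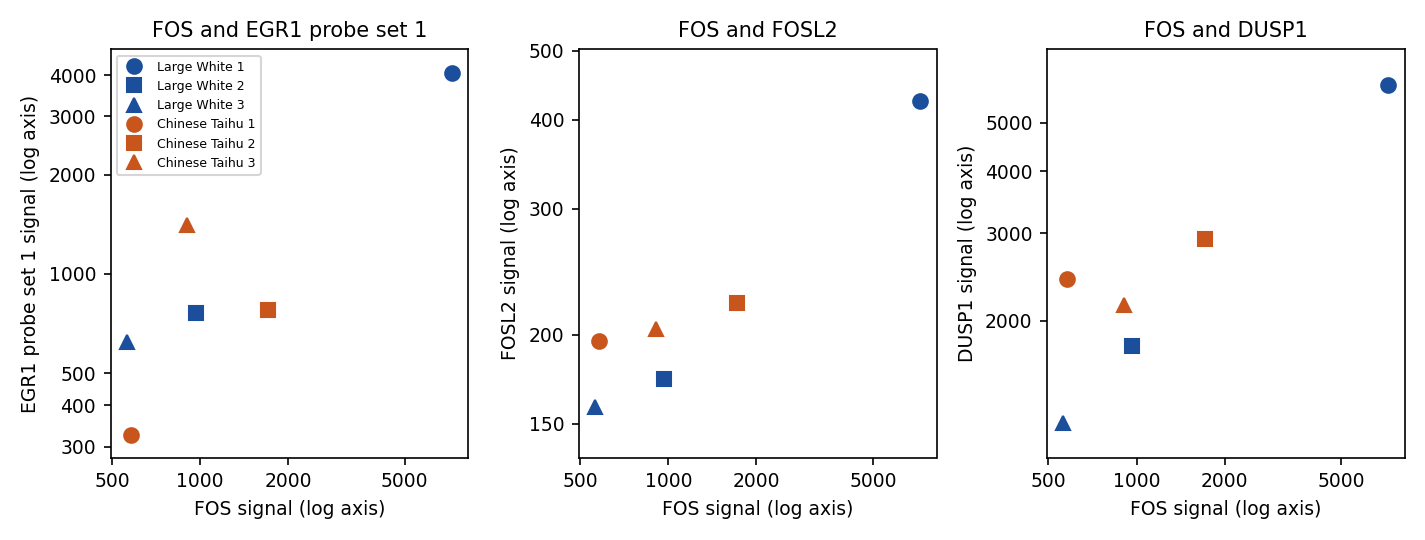
FOS signal (x axis) against EGR1 probe set 1, FOSL2 and DUSP1 (y axes), all on log axes, with 1 point per sow (blue, Large White; orange, Chinese Taihu). Large White sow 1 lies at the upper right of each panel, and over the other 5 sows FOSL2 lies between 158 and 222. FOSL2 and DUSP1 were chosen after their values were seen.

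Other immediate early genes were taken as a list of 52 symbols, of which 36 had a probe set and 32 were tested. By limma none passed an adjusted p of 0.05, and at an unadjusted p of at most 0.05, 1 was higher and 1 lower in Chinese Taihu sows (6.25% together). Of the 6322 genes tested, 1 passed the adjusted level (0.0158%) and 3.7% the unadjusted one, 1.04% higher and 2.66% lower. The list median difference was -0.05, against -0.04 over all genes. PER1, a clock gene that cAMP induces, was read at 822, 675 and 1069.9 in the Large White sows, all below the 1849.98, 1141 and 1793 of the Chinese Taihu sows (log2 0.89, SE 0.28, adjusted p = 0.993). Such a lack of overlap was found in 9.1% of all tested probe sets, in either direction. PER1 is named for the smallest p of the list, so its lack of overlap is no separate evidence. The second PER1 probe set differed by 0.09. RHOB, a small GTPase of the actin cytoskeleton, had means of 2858 ± 677 and 1842 ± 335 (log2 -0.62, SE 0.25), with overlap between the breeds, and its 3 other probe sets had a median difference of -0.16. ZFP36, which destabilizes messages with AU-rich ends, had a log2 difference of -0.63 (SE 0.31), and GADD45G, a growth arrest protein, one of -0.41 (SE 0.29).

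In Large White sow 1, 13 of these 32 genes (40.6%) were at their highest of the 6 sows, against 22.4% of all tested genes, and 4 were at their lowest. FOSL2, a further AP-1 subunit, had 425 in that sow and 158 to 222 in the other 5. DUSP1, the phosphatase that switches off MAP kinases, had 5955 and 1249 to 2918. Both were chosen after their values were seen, and in both the breeds overlapped (adjusted p = 0.998 and 0.9997 by limma). ZFP36 at 806 and GADD45G at 1715 were also highest there, while BTG1, TXNIP, MCL1 and KLF10, all of the same list, were lowest. The list median in Large White sow 1 was 0.03, so the high values of FOS and EGR1 came with a part of the immediate early genes and not with the list as a whole.

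**Figure D5:**
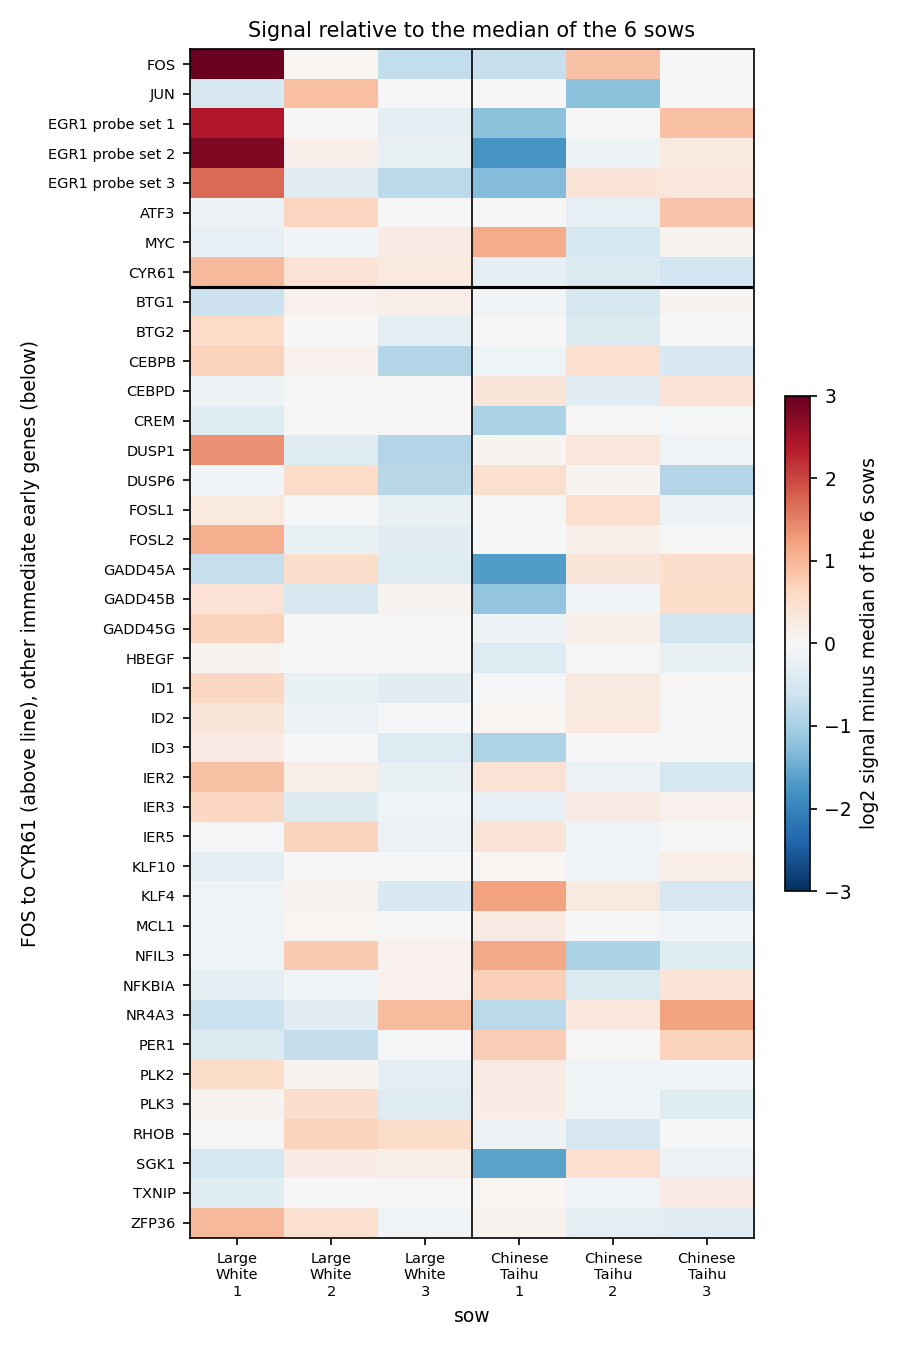
Log2 signal minus the median of the 6 sows for the 8 probe sets (above the line) and 32 other immediate early genes (below), with 1 column per sow and Large White on the left. FOS and EGR1 are deep red in Large White sow 1, where DUSP1, FOSL2, ZFP36 and IER2 are also at their highest, and BTG1 and KLF10 at their lowest.

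The upstream list runs from the LH receptor through protein kinase A and the MAP kinases to the factors that bind immediate early promoters. Of 37 symbols, 16 genes were tested, none passed an adjusted p of 0.05 by limma, and at unadjusted p 1 was lower, against 2.66% of all tested genes. That gene was ATF4, a stress factor of the CREB family, with means of 4063 ± 783 for Large White against 2755 ± 570 for Chinese Taihu and no overlap (log2 -0.56, SE 0.22, adjusted p = 0.993), while the second ATF4 probe set had -0.46. STAT3, which carries cytokine signals to the nucleus, did not overlap either, as in 9.1% of all tested probe sets (1701 ± 123 and 2286 ± 370, log2 0.41, SE 0.19). MAP2K2, a kinase upstream of ERK, had -0.46 (SE 0.25). GNAS, the stimulatory G protein subunit, had 0.21 (SE 0.13) at signals of 51.8 to 65.7, also without overlap. ATF4, STAT3 and GNAS are among the 4 genes named for the smallest p of the list, so their lack of overlap is no separate evidence. The list median was 0.03.

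Partners and regulators of AP-1 and MYC gave 5 tested genes of 21 symbols, and none had a limma p of at most 0.05, adjusted or not. FBXW7, which marks MYC and JUN proteins for breakdown, averaged 375 ± 33.4 in Large White against 553 ± 178 (log2 0.51, SE 0.29, adjusted p = 0.993), and a median difference of 0.40 was found over 4 further probe sets of the gene. MXI1, an antagonist of MYC, had 0.22 (SE 0.52), RXRA, the nuclear receptor partner, 0.16 (SE 0.15) and DDIT3, a stress factor, -0.24 (SE 0.36). The list median of 0.16 rests on these few genes.

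Of a list of genes that respond to LH at ovulation, not all in 1 direction, 14 of 22 symbols were tested and none had a limma p of at most 0.05. Their median difference was -0.05. IL6, a cytokine of the cumulus, had 50.7 to 55.1 for Large White against 58.8 to 78.0 for Chinese Taihu (log2 0.32, SE 0.16, adjusted p = 0.993). The breeds did not overlap in this gene, as in 9.1% of all tested probe sets, and it had the smallest p of the list. PLAU, the urokinase that activates plasmin, had -0.71 (SE 0.44) and TIMP1, an inhibitor of matrix proteases, -0.48 (SE 0.35). TNFAIP6, a hyaluronan-binding protein of the expanding cumulus, had 744 in Chinese Taihu sow 2, against 25.4 to 66.0 elsewhere. This sow was the second highest in FOS, but Large White sow 1, the highest in FOS, had a TNFAIP6 signal of only 58.6. Over the 6 sows the r of TNFAIP6 with FOS was 0.32.

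The list around CYR61 was drawn up from its family, its integrin receptors and the TEAD factors that drive it, with their targets. Of 32 symbols, 13 genes were tested, and none had a limma p of at most 0.05. No other gene of the CYR61 family was among the 13, so the list does not read that family. The log2 difference was below 0 for 10 of the 13, as it was for 3554 of the 6322 tested genes. The list median was -0.09 and ran from -0.26 to 0.09 as single sows were left out. ITGB3, which with ITGAV forms a receptor of CYR61, had 184, 614 and 165 for Large White against 61.6, 205 and 187 for Chinese Taihu, so that Large White sow 2 stood apart (log2 -0.995, SE 0.67). SDC4, a heparan sulfate co-receptor, had 638, 2303 and 1680, and 314, 770 and 898 (log2 -1.17, SE 0.60). ITGAM, a leukocyte integrin, had -0.78 (SE 0.34) at signals of 28.9 to 85.9, and TEAD1, the DNA-binding factor, 0.17 (SE 0.15), all with an adjusted p of 0.993. In Large White sow 2, 7 of the 13 genes were at their highest (53.8%, against 17% of all tested genes), in the sow with the most leukocyte marker signal. ITGAM and ITGB2 belong to both lists. CYR61 itself was not highest in that sow.

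CYR61 has been described as responsive to estrogen, and 3 of 9 symbols for estrogen receptors and targets were tested. ESR1, the alpha receptor, averaged 223 ± 29.9 in the Large White group against 238 ± 21.2 (log2 0.10, SE 0.18, adjusted p = 0.993). PGR, the progesterone receptor, had -0.19 (SE 0.35) and TFF1, a trefoil peptide, 0.03 (SE 0.15). None had a limma p of at most 0.05.

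The genes whose log2 signal followed each member most closely over the 6 arrays were taken from the 6316 other genes, as a description of 6 points which share the normalization and the cell makeup of each array. FOS was followed by THAP7 (r = 0.99), MRPL54 of the mitochondrial ribosome (0.99), the cytidine deaminase CDA (0.98), KCNIP1 (0.98) and C4H1orf226 (0.98). THAP7 ranged only from 545 to 727 where FOS ranged 12.9-fold, so a like order of the sows did not mean a like size of change. CDA had the same 2 high sows, at 199.6 (Large White sow 1) and 132 (Chinese Taihu sow 2) against 79.9 to 98.7. EGR1 was followed by BPIFA2 (0.99), the histone kinase GSG2 (0.98), POLE2 of the replicative polymerase (0.97), the transcription factor ETS2 (0.96) and FANCD2 of DNA crosslink repair (0.96).

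JUN was followed by the adaptor NCK2 (0.98), KIAA0907 (0.98), BET1L (0.97), RAB35 (0.97) and ORMDL3 (0.97). ATF3 was followed by SORBS3 (0.99), PMEPA1, a target and brake of TGF-beta signalling (0.99), the pantetheinase VNN1 (0.99), SOCS6 (0.96) and DCTN2 (0.96). VNN1 shared the 2 high sows of ATF3, at 298 (Large White sow 2) and 746 (Chinese Taihu sow 3) against 38.4 to 96.2. MYC had the most close followers, with 92 genes at an r of at least 0.95, against 6 to 30 for the other 5 genes. They were led by CSPP1 (0.9996), POLR3C (0.995), ZNF3 (0.99), FBXL2 (0.99) and the vessel-dilating peptide ADM (0.99), which had 3856 in Chinese Taihu sow 1, 1445 in Large White sow 3 and 390.2 to 1106 elsewhere. CYR61 was followed by GRWD1 (0.99), INTS11 (0.98), CCS, the copper chaperone of superoxide dismutase (0.98), SNRPA1 of the spliceosome (0.98) and NANS of sialic acid synthesis (0.98). In NANS the Large White sows had 1411, 1241 and 1034 and the Chinese Taihu sows 639, 641 and 577.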

How the data were processed

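RNA of 6 sows was read on Affymetrix porcine arrays, 1 array each, and the labels gave the breed. The authors made the deposited signal intensity of each probe set with MAS5 (version 2.3.1 in the submitters' processing notes), scaled every array to 500 and normalized between arrays with the invariant set method of dChip, so a difference in total RNA cannot be seen. Of 24123 probe sets, 188 controls were left out; 10069 of the rest had 1 symbol, 198 several and 13668 none. A floor of 1 was applied before the log2 step. Probe sets above 50 on at least 3 arrays (19196) were tested for breed with limma 3.58.1 (variance trend, 2-sided) in R 4.3.3. A gene in a list was read by its brightest probe set. Permutation tests were exact, in Python 3.11.15. The procedure was tested on simulated data. The number of arrays limits the precision. Genes named were all members, the 4 of each pathway list with the smallest p, the 5 closest followers of each member, and EPCAM, OVGP1, TYROBP, STAR, INHA, ACTA2 and PECAM1; others are marked. Members and lists were chosen with earlier results of these data known. The alternatives comprised a constant prior variance, other offsets and filters, median scaling, quantile normalization, array weights, a replicate block, the methods' t-test and each array left out, with the tested probe sets kept. Sequences and positions are not reported here.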

Additional observations from a re-analysis of the deposited data

How the results depend on the processing

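Under all 15 alternatives 0 of the 8 probe sets passed an adjusted p of 0.05 and 1, CYR61, an unadjusted 0.05; its log2 difference ran from -1.12 to -0.77. Signs turned only in probe sets that passed no test: leaving out 1 sow, FOS ran from -1.46 to 0.39, EGR1 from -1.31 to 0.042 and from -0.88 to 0.37 on probe sets 1 and 3, ATF3 from -0.31 to 0.26 and MYC from -0.20 to 0.63. Array weights gave 0.14 for EGR1 probe set 3. List medians ran from -0.86 to -0.051 for the 6 genes, -0.22 to 0.051 for other immediate early genes, -0.074 to 0.13 for the upstream list, -0.25 to -0.072 for heat shock and -0.67 to 0.15 for leukocytes. The r of FOS and EGR1 ran from 0.49 to 0.95 and that of JUN and ATF3 from 0.57 to 0.92 with 1 sow left out; without the 2 sows farthest from the median they were 0.73 and 0.48, and that of EGR1 and MYC was 0.063. The cause was not tested. Over all probe sets, 4 adjusted calls became 11 with array weights, 0 with the replicate block or the methods' t-test and 2 without Large White sow 1 or 3 or Chinese Taihu sow 1 or 2; 741 unadjusted calls became 1303 with array weights, 373 without Large White sow 2 and 1225 without Chinese Taihu sow 2. With the replicate block CYR61 kept -0.98 (unadjusted limma p 0.00806) and 719 probe sets had an unadjusted p of at most 0.05. Same-numbered sows share only a number: their deviations from the breed means correlated at -0.17, -0.14 and 0.27, and not every sow correlated best with its own number.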

Other observations

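Heat shock genes, a list of 23 symbols with 19 tested, had a log2 difference below 0 for 16 of them, as did 3554 of the 6322 tested genes, with a median of -0.11 against -0.04 over all genes. None passed an adjusted p of 0.05 (limma) and 2 were lower at unadjusted p, against 2.66% of all tested genes. DNAJB1, a co-chaperone of HSP70, was at 758, 1553 and 1006 in the Large White sows, against 737, 559.8 and 559.95 for Chinese Taihu (log2 -0.79, SE 0.31). HMOX1, the enzyme that breaks down heme, was at 1273, 3337 and 1394, against 231, 815 and 1072 (log2 -1.62, SE 0.66), and was highest in Large White sow 2, as JUN was. HSP90AB1 and HSP90AA1, the constitutive and inducible HSP90 chaperones, each had a log2 difference of -0.20 (SE 0.11 and 0.12), and the adjusted p of all 4 was 0.993 by limma. Among the 19 tested genes, the breeds did not overlap only in DNAJB1, HMOX1 and HSP90AB1, against 5.12% of all tested probe sets in this direction. These are among the 4 genes named for the smallest p of the list, so their lack of overlap is no separate evidence. Of the 9 marker lists, red blood cell markers had 2 of 4 genes higher in Chinese Taihu sows at an unadjusted limma p of at most 0.05, against 1.04% of all tested genes, and in the other 8 lists none passed that level. The 2, named for passing, were ALAS2 (63.4 to 104 in Large White, 102 to 166 in Chinese Taihu) and AHSP (30.1 to 75.6 and 63.3 to 153). Both had low signals and overlapping breeds, and their adjusted p was 0.993 by limma. The log2 differences of HBB and HBM were 0.50 and 0.12.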
